A study of Carica papaya with 7 samples.

Results

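The genes and reading frames described here are those of the plant mitochondrial genome as the Affymetrix ATH1 GeneChip, an array designed for Arabidopsis, represents them. They comprise 53 of the 22746 probe sets of the array that are not controls. Of these, 31 were chosen because their probe set numbers form a consecutive run that holds mitochondrial genes, and 22 because the platform annotation gives them a symbol that begins with nad, cox, cob, ccb, atp, rps, rpl, mat or orf in lower case. The symbols were checked against the RefSeq annotation of papaya (assembly ASM5485532v1), whose mitochondrial genome lists 61 genes. Of the 20 mitochondrial gene symbols found, 17 occur there under the same name, and ccb203, ccb382 and orfX do not occur under those names.

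The study compared the pulp of unripe and ripe papaya fruit, and its purpose was to describe how transcripts change as this fleshy fruit ripens. Fruits of the cultivar 'Golden' were picked between colour break and partly yellow skin, at about 150 days after anthesis, and peel and seeds were removed. There were 3 samples of unripe and 3 of ripe pulp, each made from 12 fruits, of which 1 per stage came from a harvest in 2007 and the others from 2010. A further array of the series was hybridized with papaya genomic DNA, and this array was not analysed here.

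Signals were summarised per probe set by RMA and are linear, and they have no replicate spread of their own. In both stages the column of replicate 2 was that of replicate 1 multiplied by 1.19, and replicate 3 was the mean of the other columns, with deviations of at most 0.00109 in the signal of any probe set. Each stage was therefore counted as 1 set of values, so that no difference has an SD between replicates, a test or a p-value. The columns given below separate the stages wherever the difference exceeds the factor of 1.19, so that their separation or overlap restates the difference and gives it no replicate support. The median signal of all probe sets was 4.21 in each stage. The brightest control probe set for Bacillus subtilis genes, which match no plant gene, had a signal of 8.24 and served as a mark of dimness. Only 10.5% of all probe sets were brighter than this in at least 1 stage. The 27 bacterial control probe sets differed between ripe and unripe pulp by log2 values from -0.28 to 0.12. Spiked controls (bioB, bioC and bioD, together the bio controls) had a median log2 difference of -0.60, and scaling the columns to them would raise all differences by 0.60. The cre controls, spiked in the same way, had a median of -0.05, so that the spiked controls did not share the shift of the bio controls, and directions below are relative to the table as deposited.

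Plant mitochondria keep a small genome that encodes a part of the respiratory chain, a part of their ribosomes and several proteins that assemble cytochromes, while most mitochondrial proteins are encoded in the nucleus and imported. The respiratory complexes are thus built from subunits of both genomes. In Arabidopsis, a large stretch of mitochondrial DNA also lies in chromosome 2, and many transcripts of the organelle match an identifier there as well. Of the 53 probe sets, 21 had 1 symbol, 11 had both a mitochondrial symbol and an AT2G07 identifier of chromosome 2, and 21 had none. The 11 shared probe sets are given with both names. These names describe Arabidopsis, while the RNA came from papaya, and whether papaya holds such a nuclear copy was not examined. In papaya the origin of a signal rests on how well its RNA matches an Arabidopsis probe, so that brightness is not compared as a transcript level between genes.

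Many mitochondrial probe sets were among the brightest of the array. In unripe pulp, 23 of the 53 lay in the brightest 10% of all probe sets, and in ripe pulp 22 did. There were 10 members in the brightest 1% in each stage, while 12 were below the median in both stages. Above the bacterial controls were 23 members, and the other 30 were no brighter than those controls in either stage. The log2 signals of the members in unripe and ripe pulp correlated with r = 0.989 across the 53 probe sets, against r = 0.961 across all probe sets, as a description of probe sets that share their arrays. A correlation also depends on the range of signals, so that it does not compare the size of the differences. The median absolute log2 difference was larger for the members, at 0.147 against 0.107 for all probe sets.

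**Figure D1:**
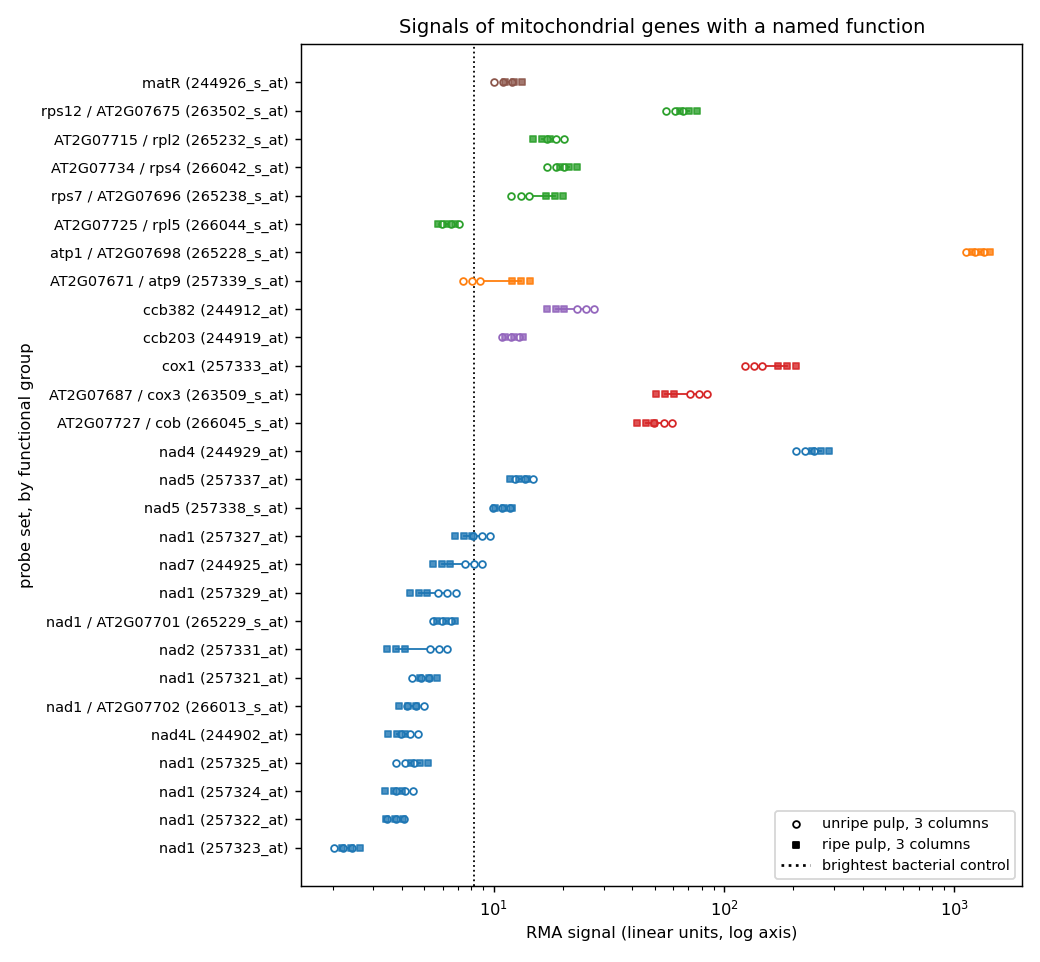
Signals (RMA, linear units on a log axis) of the 28 mitochondrial probe sets with a named function, with 3 columns of unripe pulp (open circles) and 3 of ripe pulp (filled squares) each. Colours mark the functional groups, lines join the stage means, and the dotted line is the brightest bacterial control at 8.24; atp1 is the brightest probe set and most nad1 probe sets lie left of the line.

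A log2 difference of 0.32, which is the fold that the study used, was taken as the limit beyond which a probe set was counted as higher or lower. This limit was passed by 11 of the 53 members, against 7.1% of all probe sets. Of the members, 6 were higher in ripe pulp (11.3%, against 3.57% of all probe sets) and 5 were lower (9.43%, against 3.53% of all probe sets), so that 42 stayed within the limit. Bright probe sets passed the limit more often over the whole array. Among probe sets whose mean over both stages was brighter than the bacterial controls, 7.78% were higher and 8.38% were lower, and of the 21 members among them 3 were higher and 2 were lower. The median log2 difference was 0.06 for the members and -0.005 for all probe sets. The members ranged from -0.62 to 0.79, with 30 above and 23 below 0. In whole pulp, a change in the number of cells or mitochondria cannot be told apart from a change in RNA per mitochondrion.

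The nad genes encode the mitochondrial subunits of complex I, which passes electrons from NADH to ubiquinone. Their 15 probe sets had a median log2 difference of -0.09, which was 0.52 after scaling to the bio controls. None was higher beyond the limit (against 3.57% of all probe sets), 3 were lower (20%, against 3.53%) and 12 lay within it. After quantile normalization nad4 was higher. Of the 15, 9 are probe sets of nad1, so that these are not counts of genes. Only 4 of the 15 were brighter than the bacterial controls, and the 3 lower probe sets were not among these 4. Over the nad probe sets whose mean of both stages was brighter than the controls, the median was 0.03.

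For nad2, a subunit of the membrane arm of the complex, the signals were 5.29, 6.29 and 5.79 in unripe replicates 1, 2 and 3 and 3.45, 4.11 and 3.78 in the ripe replicates. The log2 difference of -0.62 was the lowest among all members. For nad7, a subunit of the peripheral arm, the unripe signals were 7.5, 8.92 and 8.21 and the ripe ones 5.45, 6.48 and 5.97. The difference was -0.46, and the unripe mean was just below the brightest bacterial control. After scaling to the bio controls the difference of nad7 was 0.14.

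The brightest nad probe set was that of nad4, a proton-pumping subunit of the membrane arm. Its signals were 206, 245 and 225 in unripe and 240, 286 and 263 in ripe pulp. The log2 difference was 0.22, within the limit, and it was 0.41 after quantile normalization. The small membrane subunit nad4L differed by -0.19 at stage means of 4.33 and 3.79.

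The gene nad1 was represented by 9 probe sets, of which 2 are shared with AT2G07701 and AT2G07702, and nad5 by 2. In flowering plants the transcripts of both genes are pieced together by trans-splicing from separate precursors. The annotation used here does not say which exon or intron each probe set matches. The log2 differences of the nad1 probe sets ran from -0.41 to 0.21 with a median of -0.02, and 8 of the 9 were within the limit. Only 257327_at was brighter than the bacterial controls, at a mean of 8.89 in unripe against 7.44 in ripe pulp, a difference of -0.26. The probe set 257329_at went from 6.28 to 4.73, a difference of -0.41 (0.19 after scaling to the bio controls), and 257325_at went from 4.13 to 4.76, a difference of 0.21. Both nad5 probe sets were brighter than the bacterial controls and nearly level between the stages, at differences of -0.09 and 0.03.

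**Figure D2:**
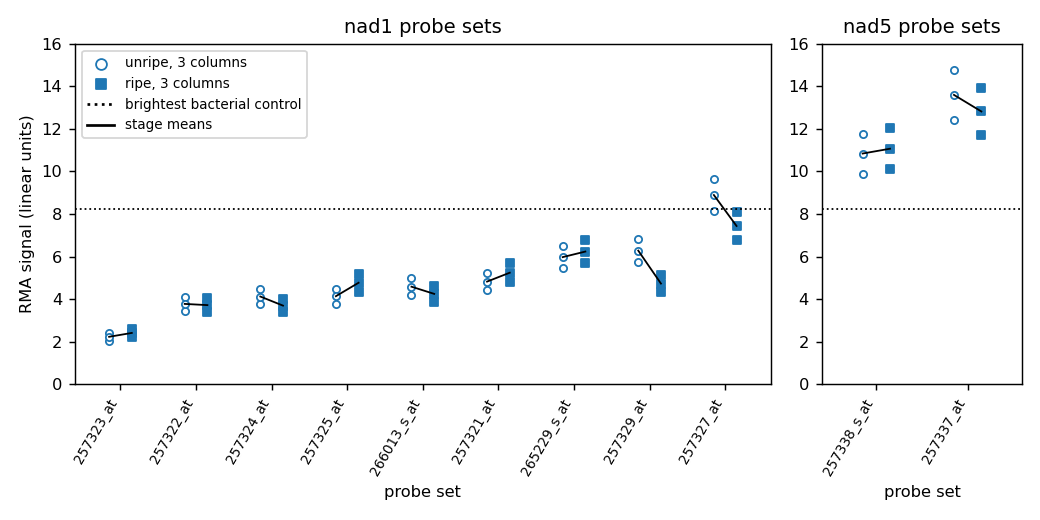
Signals (RMA, linear units) of the 9 probe sets of nad1 and the 2 of nad5, with 3 columns of unripe (open circles) and 3 of ripe pulp (filled squares), lines between the stage means and the brightest bacterial control as a dotted line at 8.24. Most nad1 probe sets differ between the stages by little, and 1 of the 9 reaches the dotted line in its mean.

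The cox genes encode core subunits of complex IV, the terminal oxidase that reduces oxygen, and cob encodes cytochrome b of complex III. All 3 probe sets of these genes were bright, and the cox genes lay on opposite sides of the limit. The signals of cox1 were 123, 146 and 135 in unripe and 172, 204 and 188 in ripe pulp. The log2 difference was 0.48.

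The probe set of cox3 and AT2G07687 had signals of 71.0, 84.5 and 77.8 in unripe and 50.7, 60.3 and 55.5 in ripe pulp. The log2 difference was -0.49 (0.12 after scaling to the bio controls). The probe set of cob and AT2G07727 had means of 54.6 and 45.8, a difference of -0.26, within the limit, which was -0.086 after quantile normalization. The median of the group, -0.26, is thus the value of cob, and it was 0.35 after scaling to the bio controls. Since cox1 was higher and cox3 lower in the same columns, no common scaling of a column brings both differences to 0.

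The ccb genes encode proteins of cytochrome c maturation, which attach haem to cytochromes of the c type, and ccb382 and ccb203 each encode a part of the haem lyase component that is split in Arabidopsis. For ccb382 the signals were 23.0, 27.4 and 25.2 in unripe and 17.0, 20.2 and 18.6 in ripe pulp. The log2 difference was -0.43 (0.17 after scaling to the bio controls). For ccb203 the signals were 10.8, 12.9 and 11.8 in unripe and 11.2, 13.4 and 12.3 in ripe pulp. Its difference was 0.06, within the limit.

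The atp genes encode subunits of the ATP synthase, atp1 the alpha subunit of the catalytic head and atp9 the subunit that forms the ring in the membrane. The probe set of atp1 and AT2G07698 had signals of 1128, 1343 and 1235 in unripe and 1197, 1424 and 1310 in ripe pulp. It was the brightest of the 53 members in both stages. Its log2 difference was 0.09 in the table as deposited and 0.46, past the limit, after quantile normalization. The probe set of atp9 and AT2G07671 had signals of 7.34, 8.74 and 8.04 in unripe and 12.0, 14.3 and 13.2 in ripe pulp. Its difference of 0.71 was the highest among members with a named function. The unripe mean of atp9 was slightly below the brightest bacterial control and the ripe mean was above it.

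Mitochondrial ribosomal proteins were represented by rps4, rps7, rps12, rpl2 and rpl5, whose 5 probe sets are all shared with chromosome 2 identifiers. Their median log2 difference was 0.20. Beyond the limit, 1 was higher (20%, against 3.57% of all probe sets) and none lower (against 3.53%). The probe set of rps7 and AT2G07696 had signals of 11.9, 14.2 and 13.1 in unripe and 16.8, 20.03 and 18.4 in ripe pulp. The difference was 0.50. The probe set of rpl2 and AT2G07715 had signals of 17.0, 20.3 and 18.7 in unripe and 14.8, 17.6 and 16.2 in ripe pulp, at a difference of -0.21. The other small subunit genes were also brighter in ripe pulp by less than the limit, rps4 with AT2G07734 by 0.20 and rps12 with AT2G07675 by 0.20, while rpl5 with AT2G07725 was at -0.06. After scaling to the bio controls all 5 were above 0.

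The maturase gene matR, whose protein is related to factors that help introns to be spliced, had signals of 10.1, 12.0 and 11.0 in unripe and 11.2, 13.3 and 12.3 in ripe pulp. The log2 difference was 0.16, within the limit.

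**Figure D3:**
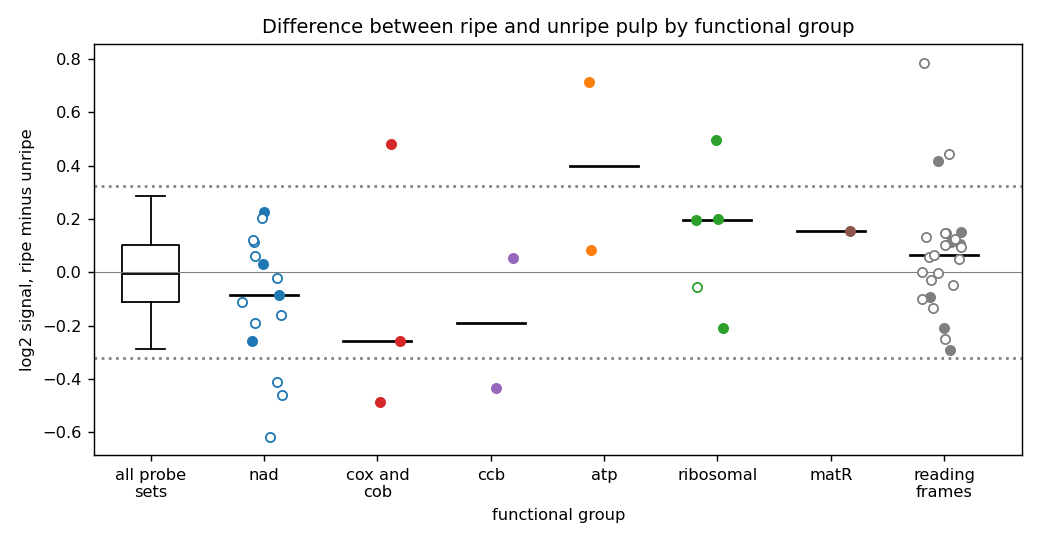
Log2 signal of ripe minus unripe pulp for each member by functional group, with the group median as a black bar, beside all 22746 probe sets as a box (quartiles and median, whiskers at the 5th and 95th percentiles). Filled points are brighter than the bacterial controls in at least 1 stage, and dotted lines mark the limit of 0.32 in either direction; under scaling to the bio controls all points would lie 0.60 higher.

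The remaining 25 probe sets are reading frames without a subunit name in the annotation used here and probe sets without a symbol. Groups follow the symbols alone, so that a chromosome 2 identifier gives no function here. Their median log2 difference was 0.06, with 16 above and 9 below 0. Beyond the limit, 3 were higher (12%, against 3.57% of all probe sets) and none lower (against 3.53%). Only 7 of them were brighter than the bacterial controls. The largest difference of all 53 members was that of the probe set with the lowest number, which has no symbol. Its signals were 4.11, 4.90 and 4.50 in unripe and 7.09, 8.44 and 7.77 in ripe pulp, at a difference of 0.79. The next of these reading frames was 244914_at, also without a symbol, with signals of 2.67, 3.18 and 2.93 in unripe and 3.63, 4.32 and 3.98 in ripe pulp, at a difference of 0.44. Both had stage means below the brightest bacterial control.

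Of the reading frames, 4 had a symbol, and all of these were above 0. The third probe set past the limit was that of AT2G07776 (244927_at), whose mean went from 6.32 to 8.44, a difference of 0.42. The brightest of the group was AT2G07751 (244920_s_at), with signals of 112, 133 and 122 in unripe and 120.1, 143 and 132 in ripe pulp, at a difference of 0.11 (0.30 after quantile normalization). The gene orfX, which encodes a protein like the TatC subunit of a protein translocase, had means of 33.2 and 36.9, a difference of 0.15, and AT2G07674 had means of 3.06 and 3.18, a difference of 0.06. Of the probe sets without a symbol, the study's list of probe sets identifies 2 as AtMg01000 and AtMg01021. The signals of AtMg01000 were level at 4.61 and 4.59. Those of AtMg01021 were 11.5 and 9.38, a difference of -0.29, which is within the limit.

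A further 6 probe sets with a mitochondrial symbol carry numbers of the run that follows, which holds mostly genes of the plastid genome. They were therefore not among the 53. That run also holds nuclear genes, such as YAB5, and probe sets without a symbol. Those without a symbol were not assigned to a genome, so that more of them may be mitochondrial. The 6 were looked at after the values were known. The probe set shared by rps3 and rpl16, both ribosomal, went from 61.3 to 110 (log2 difference 0.85), and ccb206 went from 25.04 to 34.3 (0.45). The other 4 were within the limit, at -0.09 for nad9, 0.00 for nad6, 0.11 for cox2 and 0.26 for ccb452. With them, the median of the ccb probe sets was 0.16 in place of -0.19, and that of the cox and cob probe sets was -0.07.

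The nuclear genes of the mitochondrion were examined to set both genomes side by side. Of 138 listed entries, 61 genes with 62 probe sets could be matched by symbol, with 4 higher (6.45%, against 3.57% of all probe sets) and 3 lower (4.84%, against 3.53%) beyond the limit and a median of 0.04. Only 11 of the 62 were brighter than the bacterial controls, against 23 of the 53 mitochondrial members. In complex I, none of 15 nuclear subunits passed the limit, and their differences ran from -0.25 for AT5G47890 to 0.18 for AT3G03070. None of these 15 was brighter than the bacterial controls, so that their lack of difference says little. The alternative NADH dehydrogenases, which bypass complex I, had 5 probe sets within the limit, from -0.01 for NDC1 to 0.316 for NDB4. In complex II, all 5 probe sets were within the limit, from -0.04 for SDH1-2 to 0.15 for SDH1-1. Only 1 probe set of the alternative dehydrogenases and 1 of complex II were brighter than the bacterial controls.

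In complex III, 12 probe sets stood for the nuclear subunits and cytochrome c. Of these, 3 were higher in ripe pulp (25%, against 3.57% of all probe sets) and none lower (against 3.53%). Cytochrome c1 (AT3G27240), which hands electrons to cytochrome c, went from 6.31 to 10.1, a log2 difference of 0.68. MPPBETA, a core subunit and processing peptidase, was at 0.334, and the small subunit AT3G52730 was at 0.326. Both only just passed the limit, which is 0.322 with 1 more digit. With means of 4.22 and 5.28, AT3G52730 was no brighter than the bacterial controls in either stage. The lowest of the list was AT3G10860 at -0.17. The other 9 were within the limit, as was the mitochondrial cob at -0.26, and 5 of the 12 were below 0.

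In complex IV and its assembly, 9 nuclear probe sets were all within the limit, from -0.23 for AT1G53030 to 0.14 for AT3G62400, while cox1 and cox3 were both past it. Only 1 of the 9 was brighter than the bacterial controls, and cox1 and cox3 were in the brightest 1% of the array. The nuclear and mitochondrial probe sets therefore differ in brightness as well. In the ATP synthase, 3 of the 5 nuclear probe sets were within the limit, with AT5G47030, a small subunit of the catalytic head, at 0.37 and AT4G26210, a subunit of the membrane part, at -0.33. Of these 5, only AT5G47030 was brighter than the bacterial controls. Of the nuclear genes that maintain and read the mitochondrial genome, 6 were measured. The organellar RNA polymerase gene AT5G15700, which serves mitochondria and plastids, went from 8.76 to 6.49, a difference of -0.43, and the highest was OSB1 at 0.14. Of 4 genes for mitochondrial translation, the elongation factor AT4G02930 went from 8.28 to 6.36, a difference of -0.38, and the highest was AT1G15810 at 0.15. For cytochrome c maturation only CCMH was measured, at 0.04. Lists of transport proteins and of seed, epidermis and xylem markers had no member that could be matched by symbol, so that the tissue was not checked by markers.

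**Figure D4:**
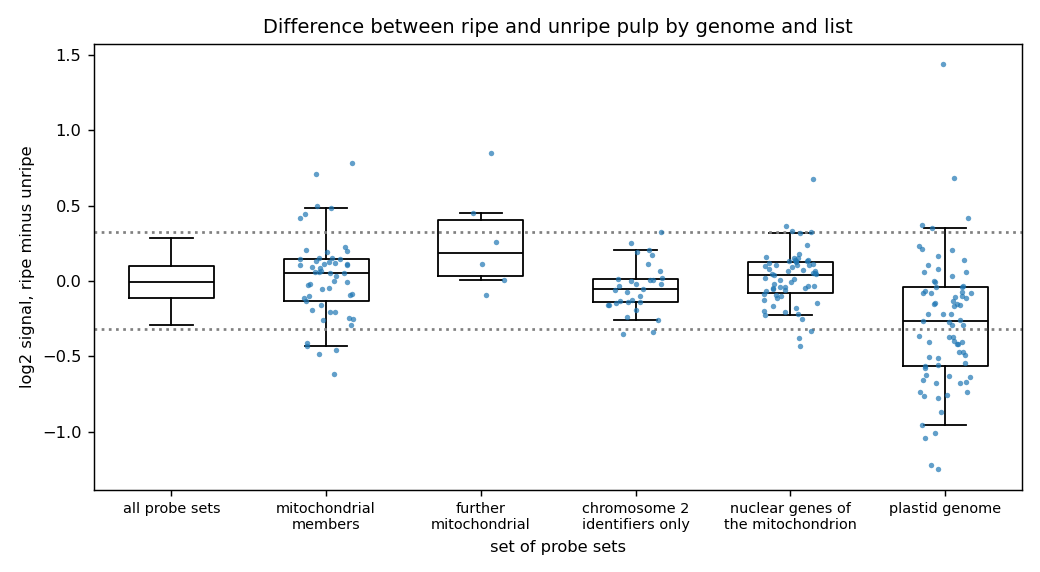
Log2 signal of ripe minus unripe pulp for all probe sets, the 53 mitochondrial members, the 6 further mitochondrial probe sets, 31 probe sets with chromosome 2 identifiers only, 62 probe sets of nuclear genes of the mitochondrion and 77 of the plastid genome. Boxes show the quartiles and median, whiskers the 5th and 95th percentiles, points single probe sets and dotted lines the limit of 0.32; the plastid box lies below 0, and the mitochondrial box spans 0, in the table as deposited.

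The genes of the plastid genome differed from those of the mitochondrial genome on the same columns. Of 77 plastid probe sets with a symbol, 35 were lower in ripe pulp beyond the limit (45.5%, against 3.53% of all probe sets). A further 5 were higher (6.49%, against 3.57%), and the median was -0.26. Of the mitochondrial members, 5 of 53 were lower and 6 were higher. Since both sets come from the same columns, the gap between their medians does not depend on a common scaling factor. Quantile normalization is not such a factor and moved some bright members, such as atp1 from 0.09 to 0.46. In unripe pulp, 38 of the 77 plastid probe sets lay in the brightest 1%, against 10 of the 53 members. The gap after quantile normalization is not given here. Among probe sets with a mean over both stages above the bacterial controls, 28 of 52 plastid and 2 of 21 mitochondrial ones were lower, against 8.38% of all such probe sets. No test of this gap was possible with 1 set of values per stage.

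**Figure D5:**
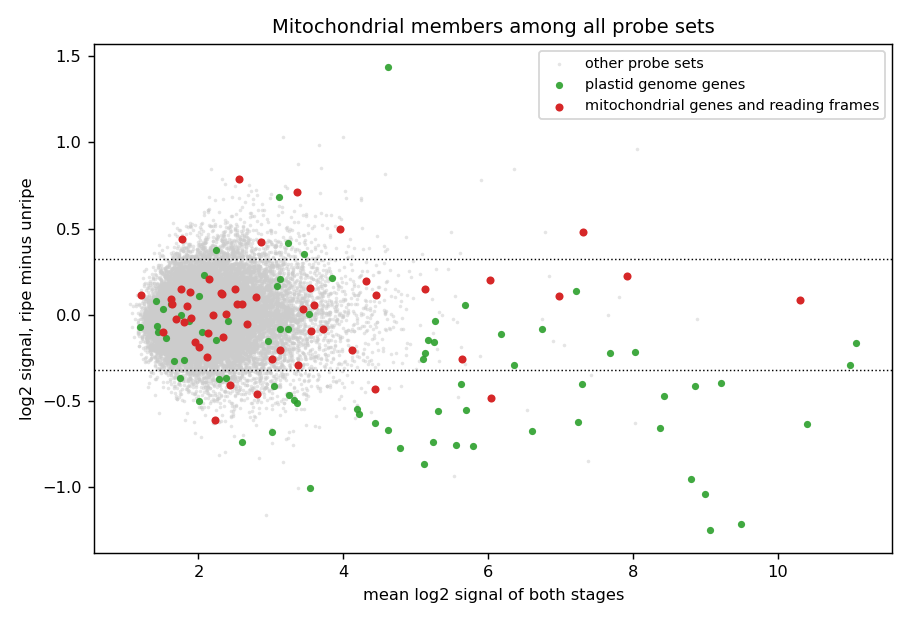
Log2 signal of ripe minus unripe pulp against the mean log2 signal of both stages for all 22746 probe sets (grey), with the 77 plastid (green) and 53 mitochondrial probe sets (red) marked and dotted lines at the limit of 0.32. Most bright plastid probe sets lie below 0 in the table as deposited, and bright mitochondrial probe sets lie on both sides of it.

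Probe sets named only by chromosome 2 identifiers from AT2G07667 to AT2G07777, within the stretch that resembles mitochondrial DNA, were compared with the members. The members AT2G07674, AT2G07751 and AT2G07776 are also named only in this way and were counted with the 53. Such a name alone therefore does not tell whether a probe set matches a mitochondrial gene. The 31 others were not sorted by this, so that the comparison is not one between genomes. Of the 31 others, 1 was higher (3.23%, against 3.57% of all probe sets) and 2 were lower (6.45%, against 3.53%) beyond the limit. These counts are small and near those shares, and the median of the 31 was -0.05. The brightest was AT2G07707, with means of 478 and 470 and a difference of -0.02, followed by AT2G07741 with means of 194 and 152 and a difference of -0.35. Of the 11 members shared between a mitochondrial symbol and a chromosome 2 identifier, 2 were higher (18.2%) and 1 was lower (9.09%), with a median of 0.06.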

How the data were processed

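Biotin-labelled cRNA from 5 µg of papaya pulp RNA was hybridized to ATH1 arrays. The deposited values are intensities (RMA signals per probe set, linear scale), which the authors made with MAS 5.0 and GeneSpring. The methods describe a filter of probes by papaya genomic DNA hybridization. All 22810 probe sets of the array have a value in the deposited table, so that it is not limited to probe sets kept by such a mask, and its effect on single signals is not known here. Groups came from the labels. Signals were log2 transformed with a floor of 1, below which 0 values lay, and differences were taken as mean log2 in ripe minus mean log2 in unripe pulp. Of 22810 probe sets, 64 controls were excluded. A limma fit and a replicate block had been planned only for columns that vary independently. Since the columns of a stage were proportional, neither was run, and whether the replicate numbers pair the samples could not be checked. Arrays give no depth, and precision is bounded by the number of arrays and by dim signals. The array of papaya genomic DNA was not used.

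Symbols came from GEO's platform annotation (13523 probe sets with 1 symbol, 493 with several, 8730 with none). Where a member had a mitochondrial and a chromosome 2 symbol, both were given. Members were named by symbol, and column values were given for the 2 members of each group with the largest difference. Further column values, for nad4 and AT2G07751, were chosen for brightness after the values were seen. Nuclear lists (13 lists with markers, 154 entries) were matched by symbol, and the highest and lowest member of each was named with further members past the limit, which is a log2 difference of 0.32. The members and lists were chosen with earlier results of these data known. Alternatives were quantile normalization, median centring, scaling to bio or cre controls, 16 added to each signal, the ratio of means, a filter on dim probe sets, other membership rules and leaving out each column. The 6 further probe sets, the rule on the first symbol and the filter on the mean of both stages were added after seeing the data. The computation was tested on simulated data. Python 3.11.15, numpy 2.4.6, pandas 2.3.3 and matplotlib 3.10.9 were used.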

Additional observations from a re-analysis of the deposited data

How the results depend on the processing

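The counts and directions depended most on scaling to the bioB, bioC and bioD controls, which raised the median of all probe sets by 0.60 and put 94.6% of all probe sets past the limit upward. It gave 47 members higher and 0 lower, and put 52 members above 0 and 1 below. Group medians were 0.52 (nad), 0.35 (cox and cob), 0.41 (ccb), 1.003 (atp), 0.80 (ribosomal), 0.76 (matR) and 0.67 (reading frames). Of the members lower beyond the limit as deposited, the sign changed for ccb382 (0.17), nad7 (0.14), nad1 257329_at (0.19) and cox3 (0.12). No member changed sign past the limit under the other scalings, and 6 members were higher and 5 lower under median centring, cre scaling and the ratio of means. Quantile normalization gave 8 higher and 5 lower, as atp1 (0.46) and nad4 (0.41) passed the limit, with medians of -0.086 for cox and cob and 0.58 for atp. Adding 16 to each signal, which shrinks differences of dim probe sets, left 1 member higher and 1 lower, with a median of 0.18 for atp.

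Among members brighter than the bacterial controls in at least 1 stage 2 were lower, among those brighter in the mean of both stages 3 were higher and 2 lower, and among the numbered probe sets 3 were higher and 2 lower. The cox and cob median was 0.48, the value of cox1, both without probe sets ending in _s_at and with members whose first symbol meets the rule. The latter rule gave 0.085 for atp and 0.35 for the ribosomal genes. With the 6 further probe sets the medians were -0.071 for cox and cob and 0.16 for ccb. In the brightest 10%, 23 members in unripe and 22 in ripe pulp became 10 and 9 without _s_at probe sets, and 11 and 11 among the numbered ones. Leaving out each column in turn gave 6 members higher in all cases and 5 to 6 lower, with 6 without unripe replicate 1 or ripe replicate 2, and between 24 and 35 members above 0. Since the columns are proportional, this shifts all probe sets alike and is no check on replicates.

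No paired analysis was possible because the columns of a stage are proportional to each other and the results come from no test. The comparison of the members with genomic DNA, and its alternatives, was not run. Dimness limits the 30 members no brighter than the bacterial controls, and each stage holds 1 set of values.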
